A study of Mus musculus with 12 samples.

Results

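The genes examined here encode the centromere, the kinetochore and the spindle assembly checkpoint, and comprised 41 of the 18193 genes measured on Affymetrix mouse arrays. They were taken by name and sorted by complex, with 13 genes of the inner kinetochore, 8 of the outer kinetochore, 4 of the corona, 7 of the checkpoint, 4 of the chromosomal passenger complex with its survivin subunit, 2 shugoshins and 3 spindle kinases or their activators. All 41 had at least 1 probe set that pairs with that gene alone. RNA came from medulloblastomas (MBs) of 8 mice, from cerebellar granule neural progenitors (GNPs, CGNP in the labels) of 2 mice and from whole cerebellum (WC) of 2 mice, each sample under its own mouse number.

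The MBs arose in p53-/- mice in which Nestin-Cre, active in neural progenitors that express nestin, inactivated Xrcc4, a factor of canonical non-homologous end-joining. The study names mice with the conditional allele as Xrcc4 c/- and as Xrcc4 c/c among the sources of its MB cells. Its methods write Xrcc4-/- for the MB cultures and give no genotype per tumor. The study describes the normal samples as matched for age and genotype, and the labels give neither age, strain, sex nor genotype. The labels call the MBs tumor tissue, whereas the study also speaks of MB cells and names 6 of these tumors among its cultures, so whether the RNA came from tissue or culture is not settled by the sources used here. No group was treated.

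Values are log2 expression levels after GCRMA, a normalization that adjusts for the sequence of each probe, and the lowest level on the arrays was 2.20. A group mean under 3 is called near the floor, and a difference against such a mean is a lower bound. Levels of different genes come from different probes and are not compared with each other. Xrcc4 itself stood between 2.44 and 3.57 in the MBs, at 3.57 and 4.19 in the GNPs and at 4.25 and 4.34 in WC, and was lower in MBs than in GNPs by 0.95 (SE 0.29, adjusted p = 0.0249, limma). Whether its probes lie in the deleted part is not given in the sources used here. The proliferation marker Mki67 had a mean level of 12.31 in the MBs, 9.02 in the GNPs and 2.29 in WC. Among the granule progenitor markers, Atoh1 had a mean level of 5.95 in the GNPs and 2.76 in WC, and the SHH target Gli1 was near the floor in the GNPs, at 2.30, and at 3.50 in WC. Of the 12 markers on this list, 6 were higher in GNPs than in WC, 2 were lower and 4 did not pass (adjusted p under 0.05, limma). Over all genes, 14.9% were higher and 13.6% were lower. The difference between the 3' and 5' probe sets of the Gapdh and beta-actin array controls was 2.93 in MB_706 and 0.56 to 0.82 in the other MBs, against 0.15 to 0.52 in the normal samples. Without MB_706 the counts of members given below for both comparisons with the MBs did not differ.

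The kinetochore is the protein assembly that links each chromosome to spindle microtubules. Its inner layer sits on centromeric chromatin that contains the histone H3 variant CENP-A, its outer layer binds microtubules, and the fibrous corona recruits motors and checkpoint proteins. The spindle assembly checkpoint holds the anaphase promoting complex in check until all kinetochores are attached, by keeping its activator CDC20 bound. Most of these genes are transcribed late in the cell cycle, and in the cerebellum granule progenitors are the main dividing cells after birth.

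Promoter sequences of these genes are shown because many cell cycle genes of the late phase carry short elements near their start. These are CCAAT, bound by NF-Y, and TTTGAA, a form of the cell cycle genes homology region that is bound by complexes with the MuvB core. The RefSeq promoter table (GRCm38.p6, 250 bases before to 50 bases after the start) held 40 promoters of 35 members, and the other 6 members, Spc24, Nsl1, Zwilch, Aurkb, Incenp and Tpx2, had no entry. The 120 bases before the start are printed for 5 members that were higher in the MBs, for Mis12, which differed little, for Mad2l1, which was higher, and for Cenpt, which was lower than in GNPs. Capitals mark CCAAT or TTTGAA on either strand, so that ATTGG is CCAAT on the other strand. The stretches lie at chr4:118437344-118437463 on the minus strand for Cdc20, chr2:172370571-172370690 on the minus strand for Aurka, chr2:127831860-127831979 on the minus strand for Bub1, chr9:83834569-83834688 on the plus strand for Ttk, chr4:124936918-124937037 on the minus strand for Cdca8, chr11:71019491-71019610 on the plus strand for Mis12, chr6:66535101-66535220 on the plus strand for Mad2l1 and chr8:105852009-105852128 on the minus strand for Cenpt.
Cdc20: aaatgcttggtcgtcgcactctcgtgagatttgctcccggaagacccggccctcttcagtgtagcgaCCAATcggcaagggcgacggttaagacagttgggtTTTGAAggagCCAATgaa
Aurka: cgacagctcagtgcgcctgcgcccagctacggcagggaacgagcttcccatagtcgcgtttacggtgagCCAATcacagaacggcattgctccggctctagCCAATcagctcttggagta
Bub1: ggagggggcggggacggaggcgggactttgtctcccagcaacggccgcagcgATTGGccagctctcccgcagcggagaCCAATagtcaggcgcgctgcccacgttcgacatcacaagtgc
Ttk: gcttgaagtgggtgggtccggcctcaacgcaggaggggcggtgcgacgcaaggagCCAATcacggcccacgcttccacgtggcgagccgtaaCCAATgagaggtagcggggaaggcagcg
Cdca8: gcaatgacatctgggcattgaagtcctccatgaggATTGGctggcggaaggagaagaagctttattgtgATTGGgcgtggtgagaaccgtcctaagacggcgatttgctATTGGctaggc
Mis12: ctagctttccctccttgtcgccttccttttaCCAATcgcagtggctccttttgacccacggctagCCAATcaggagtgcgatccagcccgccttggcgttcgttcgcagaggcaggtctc
Mad2l1: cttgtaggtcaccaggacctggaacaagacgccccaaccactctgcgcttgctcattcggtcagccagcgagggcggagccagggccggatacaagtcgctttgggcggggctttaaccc
Cenpt: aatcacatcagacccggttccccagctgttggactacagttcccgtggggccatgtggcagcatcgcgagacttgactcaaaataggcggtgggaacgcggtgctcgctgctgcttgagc
Cdc20 carried TTTGAA between both of its CCAAT elements, the closer of which began 8 bases before the start. Aurka, Bub1 and Ttk each carried a pair of CCAAT elements before the start, and Cdca8 carried 3 there. Mis12 held 4 CCAAT elements in the whole window, whereas none of these letters occurred in the windows of Mad2l1 and Cenpt.

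Of the 40 member promoters, 28 (70.0%) held CCAAT on either strand, against 37.4% of all 32851 promoters of the table. TTTGAA was found in 17 of the 40 (42.5%), against 17.9% of all promoters, and both elements in 14 (35.0%), against 6.95%. Both strands were searched, and the elements can share at most 1 base. Among the 28 promoters of the 27 members that were higher in MBs than in GNPs by at least 2 on the log2 scale, 21 (75.0%) held CCAAT and 13 (46.4%) TTTGAA. Among the 12 promoters of the 8 other members with an entry these were 7 (58.3%) and 4 (33.3%). At least 2 CCAAT elements occurred in 10 of the 28 (35.7%) and in 5 of the 12 (41.7%), against 11.7% of all promoters. Cenpk, Bub3 and Mad1l1 entered the 12 with more than 1 promoter each, and the windows of Bub3 overlap, so these shares count some genes repeatedly. Counted by gene, 24 of the 35 members held CCAAT in a promoter, 16 held TTTGAA and 14 held at least 2 CCAAT elements. These are counts of letters and say nothing on binding.

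Of the 41 genes, 39 were higher in MBs than in GNPs (adjusted p under 0.05, limma), 1 was lower and 1 did not pass. Across all 18193 genes, 18.7% were higher and 18.6% were lower in this comparison. Every MB lay above both GNP samples for 39 of the 41, whereas this held for 21.2% of all genes. The median difference over the 41 genes was 3.39 on the log2 scale, against 0 over all genes and 0.05 over the 9719 genes with a mean level above 5 in any group. Against WC, 40 of 41 were higher in MBs and 1 did not pass, with 22.2% of all genes higher and 21.8% lower, and the median difference was 4.74. Every MB lay above both WC samples for 40 of the 41, and for 24.3% of all genes. In these bulk samples, fewer cells in division and less RNA per cell cannot be told apart.

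GNPs and WC differed less. Of the 41 genes, 23 were higher in GNPs than in WC, 1 was lower and 17 did not pass, against 14.9% higher and 13.6% lower over all genes. The median difference was 1.23. The count of 23 was 9 when a difference of at least 1 was tested for and 8 under the methods' t-test with Benjamini-Hochberg adjustment. The limma fit shared the spread over all 12 samples, so the spread among the MBs entered this comparison of normal samples. In a limma fit of GNPs and WC alone the count was 17. Cenpa did not pass in the main fit (adjusted p = 0.259) and passed in the fit of GNPs and WC alone (adjusted p = 0.00558). Both GNP samples lay above both WC samples for 33 of the 41, whereas this held for 31.5% of all genes. In WC, 27 of the 41 genes were near the floor, against 4 in GNPs and 1 in MBs. The comparisons of MBs and of WC with GNPs share the same 2 GNP samples.

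**Figure D1:**
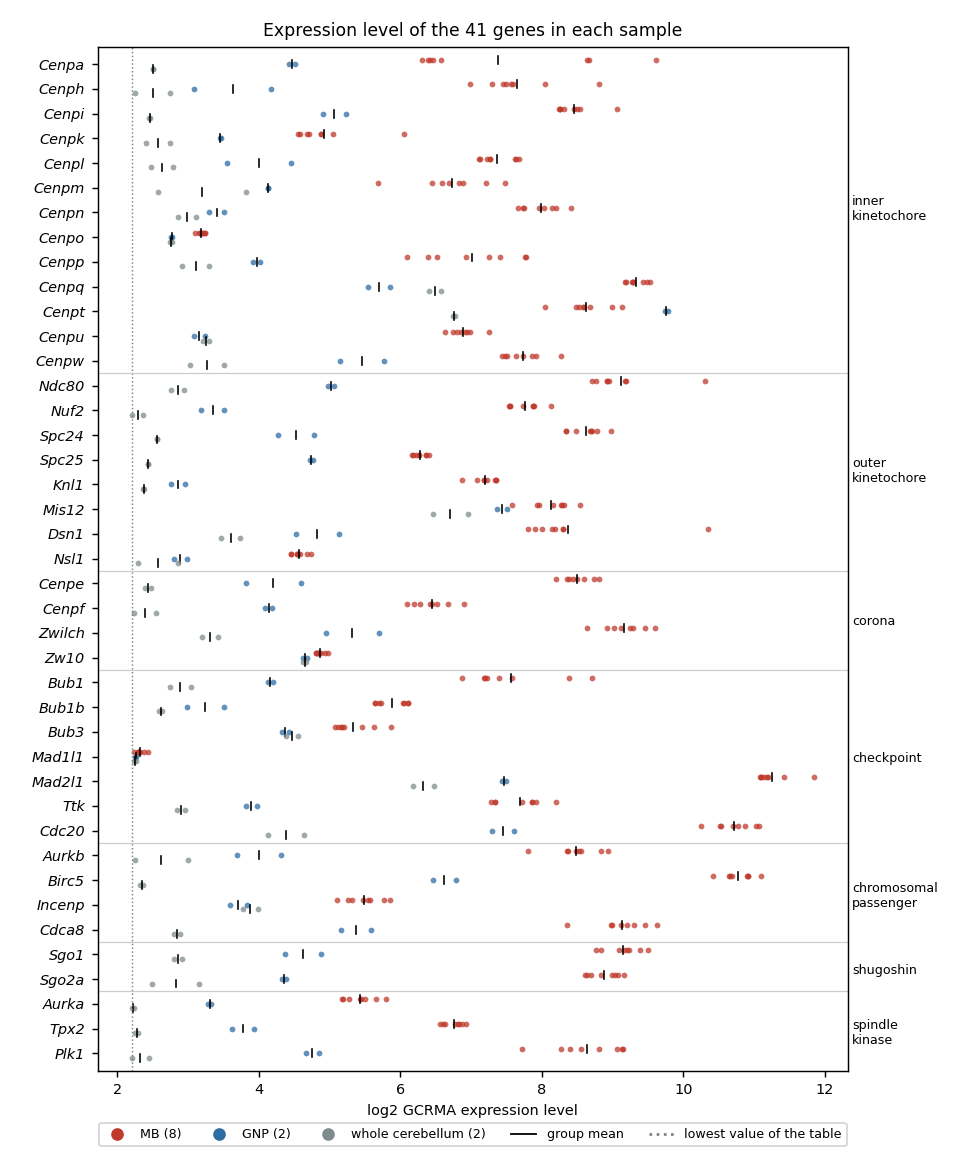
Log2 GCRMA expression level (x axis) of the 41 genes (rows, grouped by complex) in each of the 12 samples, with MBs in red, GNPs in blue and whole cerebellum in gray, a black tick for each group mean and a dotted line at the lowest value of the table. For 39 genes the 8 red points lie to the right of both blue points, while Cenpt has its blue points on the far right and Mad1l1 stays at the floor in all samples.

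Inner kinetochore genes, which encode the CENP-A nucleosome and the proteins bound to it, were higher in MBs than in GNPs for 12 of 13 members and lower for Cenpt, with a median difference of 3.05. Cenpn, which encodes a protein that reads the CENP-A nucleosome (chr8:116921716-116941504, on GRCm38.p6 as for all genes), differed most. Its level was 7.66 at the lowest, 8.0 at the median and 8.42 at the highest among the MBs, 3.29 and 3.51 in GNPs and 3.12 and 2.86 in WC. The groups of MBs and normal samples did not overlap, and MBs exceeded GNPs by 4.59 (SE 0.19, adjusted p = 7.96e-08), which is 24.0-fold. With the probe set of highest signal, MBs exceeded GNPs by 4.24 for Cenpn and by more, 4.85, for Cenpp. The difference of Cenpn between GNPs and WC was 0.41 (adjusted p = 0.241), but 0.98 with the mean of all probe sets (adjusted p = 0.0137) and 1.55 with the probe set of highest signal (adjusted p = 0.00601).

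Cenpa, which encodes the histone variant that marks the centromere (chr5:30666877-30674837), ranged from 6.31 over a median of 6.52 to 9.61 in the MBs, and stood at 4.42 and 4.52 in GNPs and at 2.50 in both WC samples. All MBs lay above all normal samples, but 3 of them, MB_1206, MB_1207 and MB_706, lay at 8.64, 9.61 and 8.67 while the other 5 lay between 6.31 and 6.58. The difference to GNPs was 2.92 (SE 0.92, adjusted p = 0.0307), and it no longer passed without CGNP_2698 (adjusted p = 0.148) or without CGNP_2705 (adjusted p = 0.138). The 2 probe sets averaged for Cenpa differed. Probe set B stood at 10.37 to 11.25 in all 8 MBs, at 6.68 on average in GNPs and at 2.75 in WC. Probe set A read 2.25 in all normal samples and in 4 MBs, 2.26 in MB_1224, and 6.24, 7.98 and 6.57 in MB_1206, MB_1207 and MB_706. MB_706 is also the sample with the largest difference between 3' and 5' controls, whose part in this probe set was not tested, and without MB_1207 and MB_706 the difference to GNPs was 2.33 (adjusted p = 0.0177). With the probe set of highest signal alone, MBs exceeded GNPs by 4.08 (adjusted p = 2.69e-07) and GNPs exceeded WC by 3.93 (adjusted p = 2.25e-06).

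Cenpt, which encodes a DNA-binding subunit that also recruits the NDC80 complex (chr8:105844669-105855086), went the other way. It stood at 9.74 and 9.79 in GNPs, at 8.05, 8.59 and 9.13 (lowest, median and highest) in MBs and at 6.75 and 6.77 in WC. The 3 groups did not overlap. Cenpt was lower in MBs than in GNPs by 1.13 (SE 0.22, adjusted p = 0.00260) and higher in MBs than in WC by 1.87 (adjusted p = 7.09e-05), and GNPs exceeded WC by 3.01 (adjusted p = 3.32e-05). Against all 4 normal samples pooled, as a figure of the study showed them for repair factors, the difference was 0.37 (adjusted p = 0.718). The study pooled cerebellum and GNPs because it found no significant difference for those factors, whereas Cenpt differed between these tissues by 3.01.

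Cenpq, of the same constitutive network, was the 1 member that passed as lower in GNPs than in WC. It read 5.54 and 5.85 in GNPs, 6.41 and 6.58 in WC and 9.18 to 9.53 in MBs. The difference of GNPs to WC was -0.80 (SE 0.14, adjusted p = 0.00196), and that of MBs to GNPs was 3.64. The call between GNPs and WC was lost in a fit of these groups alone (adjusted p = 0.0751), under the methods' t-test with adjustment (adjusted p = 0.136) and when a difference of at least 1 was tested for. Cenpo had the smallest difference of the inner layer, 0.42 (SE 0.032, adjusted p = 5.70e-06), and 3 of its 5 averaged probe sets stood at 2.20 in every group. The remaining pair showed differences of 1.93 and 0.17. The other 8 inner genes exceeded GNPs by 1.47 (Cenpk) to 4.03 (Cenph).

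Outer kinetochore genes, which encode the microtubule-binding network of NDC80, MIS12 and KNL1 complexes, were higher in MBs than in GNPs for all 8 members, with a median difference of 3.82. Nuf2, a subunit of the NDC80 complex (chr1:169497934-169531464), differed most. It ranged from 7.53 over 7.80 to 8.14 in MBs, and stood at 3.19 and 3.51 in GNPs and at 2.20 and 2.37 in WC. MBs exceeded GNPs by 4.42 (SE 0.16, adjusted p = 3.55e-08) and GNPs exceeded WC by 1.07 (adjusted p = 0.00308).

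Ndc80, which gives that complex its name and contacts the microtubule (chr17:71496100-71526857), had levels of 8.71, 8.94 and 10.31 (lowest, median and highest) in MBs, 5.06 and 4.97 in GNPs and 2.95 and 2.75 in WC. The groups did not overlap. The difference of MBs to GNPs was 4.10 (SE 0.35, adjusted p = 1.14e-05), or 17.2-fold, and that of GNPs to WC was 2.16 (adjusted p = 0.00457). Knl1, the scaffold on which BUB proteins gather, was near the floor in GNPs and WC, at means of 2.85 and 2.37, and at 6.88 to 7.36 in MBs.

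Mis12, which bridges inner and outer layers (chr11:71019568-71027371), had the smallest difference of the outer layer. It stood at 7.58, 8.21 and 8.55 (lowest, median and highest) in MBs, at 7.51 and 7.37 in GNPs and at 6.96 and 6.46 in WC, so that the lowest MB lay just above the higher GNP sample. The difference to GNPs was 0.69 (SE 0.22, adjusted p = 0.0354). It no longer passed without either GNP sample (adjusted p = 0.115 and 0.207), without MB_1197, MB_1206, MB_1207 or MB_1224 (adjusted p between 0.0542 and 0.0566) or with the arrays shifted to the same median (adjusted p = 0.0815).

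Of the 4 corona genes, 3 were higher in MBs than in GNPs by 2.30 to 4.30 and Zw10 by 0.21. Cenpe, a kinesin motor of the corona (chr3:135212563-135273540), had levels of 8.19, 8.47 and 8.81 (lowest, median and highest) in MBs, 3.81 and 4.60 in GNPs and 2.48 and 2.39 in WC. The difference to GNPs was 4.30 (SE 0.20, adjusted p = 1.95e-07), and all MBs lay far above the normal samples. Zw10, a subunit of the RZZ complex that recruits dynein (chr9:49055576-49078775), read 4.80 to 4.97 in MBs, 4.67 and 4.63 in GNPs and 4.67 and 4.63 in WC. Its difference of 0.21 to GNPs (SE 0.043, adjusted p = 0.00331) no longer passed after quantile normalization (0.09, adjusted p = 0.350) or with the arrays shifted to the same median (adjusted p = 0.354). Of its 3 averaged probe sets, 2 were near the floor in all groups and the third stood at 9.45 in MBs, 8.97 in GNPs and 8.92 in WC. Zwilch, of the same complex, exceeded GNPs by 3.84.

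Checkpoint genes were higher in MBs than in GNPs for 6 of 7 members, with a median difference of 3.27, and Mad1l1 did not pass. Mad2l1, which encodes the MAD2 protein that captures CDC20 (chr6:66535221-66541107), had levels of 11.09, 11.17 and 11.85 (lowest, median and highest) in MBs, 7.5 and 7.43 in GNPs and 6.18 and 6.47 in WC. MBs exceeded GNPs by 3.79 (SE 0.19, adjusted p = 2.67e-07), or 13.9-fold, and GNPs exceeded WC by 1.14 (adjusted p = 0.00474). Mad1l1, which encodes the partner that holds MAD2 at the kinetochore, was near the floor in all 3 groups, at 2.23 to 2.43 in MBs, 2.26 in both GNP samples and 2.24 and 2.26 in WC, and both of its probe sets were near the floor throughout.

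Cdc20, the activator of the anaphase promoting complex and the target of the checkpoint (chr4:118432901-118437343), had levels of 10.25, 10.74 and 11.07 (lowest, median and highest) in MBs, 7.29 and 7.61 in GNPs and 4.64 and 4.13 in WC. The 3 groups were well apart. MBs exceeded GNPs by 3.27 (SE 0.22, adjusted p = 2.36e-06) and GNPs exceeded WC by 3.06 (adjusted p = 2.48e-05). Bub1b, which encodes BUBR1 of the mitotic checkpoint complex (chr2:118598202-118641592), ranged from 5.64 over 5.88 to 6.11 in MBs and stood at 3.51 and 2.98 in GNPs and 2.63 and 2.59 in WC. Its difference to GNPs was 2.63 (SE 0.17, adjusted p = 2.24e-06). The second of its averaged probe sets was near the floor in all groups, and the probe set of highest signal gave 4.46.

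Bub3, which carries BUB1 and BUBR1 to the kinetochore, was measured by 3 averaged probe sets that did not move alike. The first stood at 7.82 in MBs, 7.93 in GNPs and 8.05 in WC, the second at 5.33, 2.79 and 2.86, and the third was near the floor in all groups. The mean over the 3 exceeded GNPs by 0.96 (SE 0.20, adjusted p = 0.00320). With the probe set of highest signal, which carries a suffix for shared sequence, the difference was 0.55 (adjusted p = 0.0111). For Bub1, the kinase that marks centromeres for shugoshin, probe set A stood at 10.33 to 10.90 in MBs and 6.11 on average in GNPs. Probe set B stood at 6.54 in MB_1207, 6.26 in MB_706, 3.42 to 4.34 in the other MBs and 2.22 in GNPs. The part of the larger difference between 3' and 5' controls of MB_706 in this probe set was not tested. Ttk, the MPS1 kinase that starts checkpoint signaling, exceeded GNPs by 3.79.

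**Figure D2:**
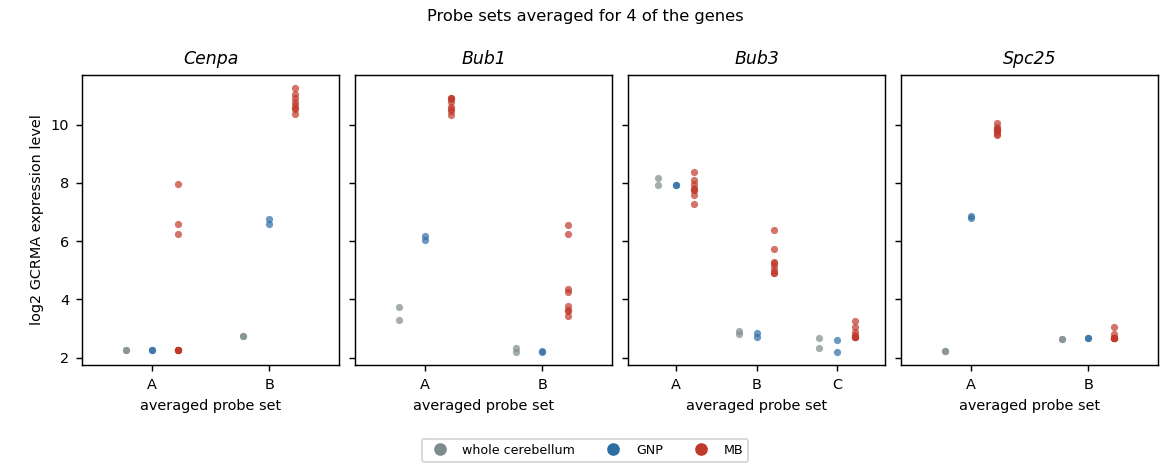
Log2 GCRMA expression level (y axis) of each probe set averaged (A, B or C on the x axis) for Cenpa, Bub1, Bub3 and Spc25 in each sample, with whole cerebellum in gray, GNPs in blue and MBs in red. Probe set A of Cenpa reads 2.25 or 2.26 in 5 MBs and 6.24 to 7.98 in the other 3, probe set A of Bub3 does not separate the groups, and probe set B of Spc25 stays near the floor.

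All 4 genes of the chromosomal passenger complex, which corrects wrong attachments, were higher in MBs than in GNPs, with a median difference of 3.96. Aurkb, its kinase (chr11:69045624-69051664), had levels of 7.81, 8.51 and 8.93 (lowest, median and highest) in MBs, 3.68 and 4.31 in GNPs and 2.25 and 2.99 in WC. The difference to GNPs was 4.49 (SE 0.29, adjusted p = 1.94e-06), or 22.4-fold. Aurkb is the 1 member whose probe sets all carry a suffix for sequence shared with other transcripts. Incenp, the scaffold of the complex (chr19:9872295-9899489), differed least, with 5.11, 5.51 and 5.86 (lowest, median and highest) in MBs, 3.59 and 3.83 in GNPs and 3.99 and 3.77 in WC. It exceeded GNPs by 1.78 (SE 0.18, adjusted p = 3.88e-05) and the difference of GNPs to WC was -0.17 (adjusted p = 0.761). Its averaged probe sets exceeded GNPs by 3.49, 0.67, 2.95 and -0.0022, the last at 2.20 in every group. The probe set of highest signal, which carries a suffix and was not averaged, gave 2.88.

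Birc5, which encodes survivin, separated all 3 groups. It stood at 10.43 to 11.10 in MBs, at 6.46 and 6.79 in GNPs and near the floor in WC, at 2.32 and 2.37. MBs exceeded GNPs by 4.16 (SE 0.16) and GNPs exceeded WC by 4.28 (SE 0.20), which is a lower bound. Cdca8, which encodes borealin, exceeded GNPs by 3.76.

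The shugoshins, which protect centromeric cohesin, had nearly equal differences. Sgo1 (chr17:53674786-53691331) had levels of 8.77, 9.19 and 9.50 (lowest, median and highest) in MBs, 4.37 and 4.88 in GNPs and 2.92 and 2.80 in WC. Sgo2a (chr1:57985340-58026277) had levels of 8.61, 8.91 and 9.16 in MBs, 4.38 and 4.33 in GNPs and 2.50 and 3.16 in WC. For both, MBs exceeded GNPs by 4.53 (adjusted p = 1.19e-07 for Sgo1 and 8.94e-08 for Sgo2a), and GNPs exceeded WC by 1.77 and 1.53.

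Of the spindle kinases, Plk1, the polo kinase of centrosomes and kinetochores (chr7:122159435-122169884), had levels of 7.72, 8.68 and 9.15 (lowest, median and highest) in MBs, 4.66 and 4.85 in GNPs and 2.45 and 2.20 in WC. MBs exceeded GNPs by 3.88 (SE 0.35, adjusted p = 1.52e-05) and GNPs exceeded WC by 2.43 (adjusted p = 0.00220). Aurka, the Aurora kinase of the spindle poles (chr2:172356190-172370886), ranged from 5.18 over 5.44 to 5.80 in MBs and stood at 3.29 and 3.32 in GNPs and 2.23 and 2.21 in WC. Its difference to GNPs was 2.13 (SE 0.15, adjusted p = 2.92e-06), with 1 of its 2 averaged probe sets near the floor in all groups and the other at a difference of 4.16. Tpx2, which activates Aurora A on the spindle, exceeded GNPs by 2.98.

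**Figure D3:**
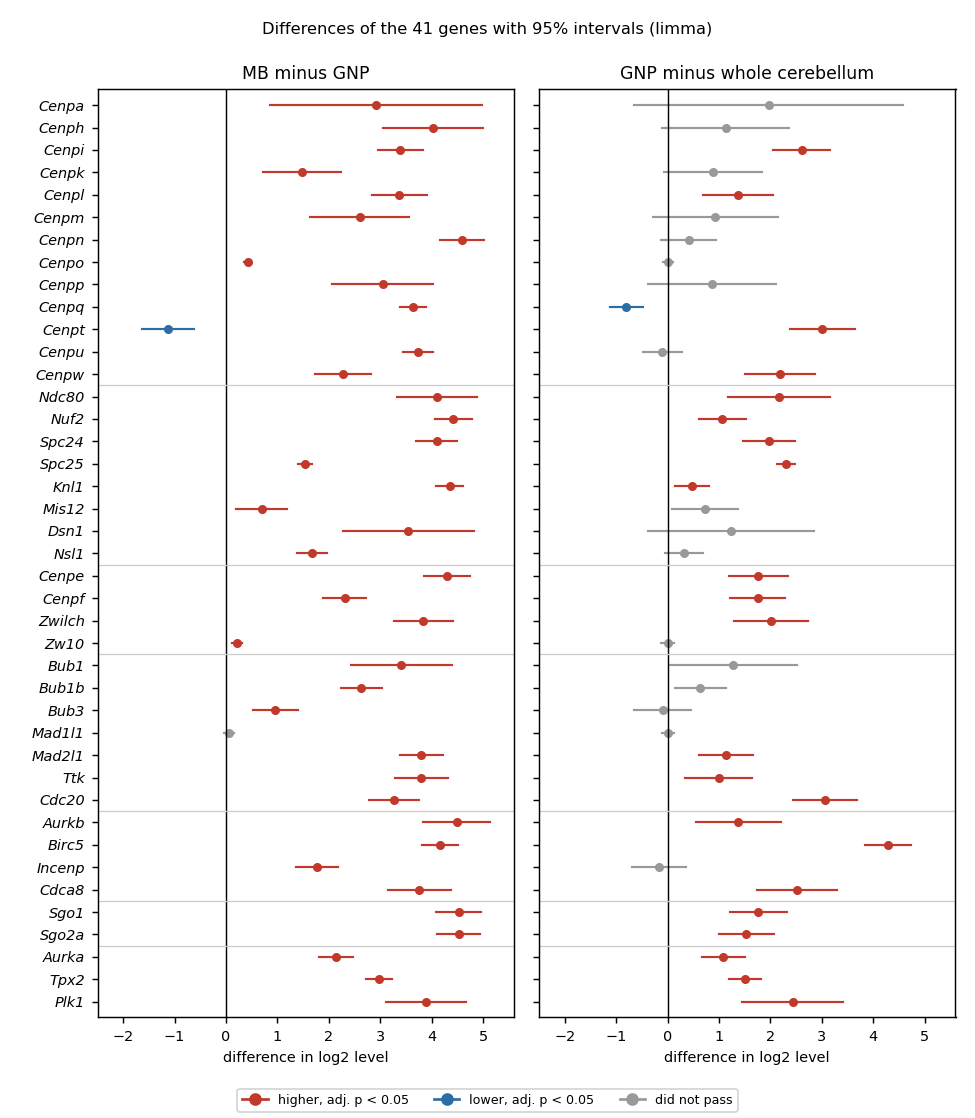
Difference in log2 level (x axis) of each of the 41 genes (rows, in the order of the complexes) between MBs and GNPs on the left and between GNPs and whole cerebellum on the right, with 95% intervals from limma, red for higher and blue for lower at an adjusted p under 0.05 and gray for genes that did not pass. On the left 39 genes are red and Cenpt is blue at -1.13, and on the right 23 are red, Cenpq is blue at -0.80 and 17 are gray.

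Probe sets near the floor entered several of these means. Of the 74 probe sets averaged for the 41 genes, 15 were near the floor in all 3 groups, and they belonged to 11 genes. Spc25 of the NDC80 complex exceeded GNPs by 1.53 as the mean over 2 probe sets, of which 1 differed by 3.0 and the other by 0.07. With the probe set of highest signal for each gene, the median difference of the 41 genes to GNPs was 3.84 in place of 3.39, and the counts were again 39 higher and 1 lower.

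Other genes of the kinetochore and of CENP-A loading, taken as a list of 25 measured genes beside the members, were less uniform. Between MBs and GNPs, 15 were higher, 3 were lower and 7 did not pass, with a median difference of 1.36. The shares over all genes were 18.7% higher and 18.6% lower. Kntc1, the third RZZ subunit, rose by 5.06 (SE 0.30, adjusted p = 1.03e-06) and Haspin, the kinase that places the passenger complex on chromatin, by 4.76 (adjusted p = 7.40e-08), a lower bound since GNPs were near the floor. Clasp2, a microtubule plus-end protein that also acts outside mitosis, fell by 1.06 (adjusted p = 5.70e-04), and Zwint, which binds KNL1, fell by 0.89 (adjusted p = 0.00521). Zwint had a mean level of 7.16 in MBs, 8.04 in GNPs and 7.0 in WC. Ndel1, a dynein regulator that neurons use for migration, fell by 0.82 (adjusted p = 2.67e-06).

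The anaphase promoting complex and its partners, which act once the checkpoint is satisfied, moved less. Of 20 measured genes, 8 were higher in MBs than in GNPs, 3 were lower and 9 did not pass, with a median difference of 0.17. Over all genes, 18.7% were higher and 18.6% were lower. Espl1, the protease separase, rose by 4.51 (SE 0.37, adjusted p = 9.50e-06), and Fbxo5, the inhibitor EMI1, rose by 3.90 (adjusted p = 1.95e-07). The core subunits Anapc11 and Anapc16 fell by 0.40 (adjusted p = 0.00181) and by 0.33 (adjusted p = 0.00759). The genes of mitotic entry were higher in MBs than in GNPs for all 13 measured, with a median difference of 3.26. The phosphatases Cdc25b and Cdc25c, which activate CDK1, rose by 5.0 and by 3.95 (adjusted p = 1.35e-07 for both).

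Markers of other cell types moved with the same groups. Beside the counts below, 18.7% of all genes were higher and 18.6% were lower in MBs than in GNPs. Against WC, 22.2% of all genes were higher and 21.8% were lower in MBs. Of 10 microglia markers, 9 were higher in MBs than in GNPs, and the mean level over the list was 6.20 to 7.54 in MBs, 3.35 and 4.37 in GNPs and 5.19 and 5.34 in WC, with C1qb higher than in GNPs by 5.99 and C1qa by 5.95. Of 7 mesenchymal markers, 6 were lower in MBs than in GNPs, with a mean level of 2.91 to 5.81 in MBs, 6.29 and 6.48 in GNPs and 4.11 and 4.28 in WC, and Lum fell by 4.39 and Col3a1 by 3.80, although MBs and GNPs overlapped for both. Of 9 granule neuron markers, 1 was higher and 4 were lower in MBs than in GNPs, and 7 were lower in MBs than in WC, with a mean level of 6.34 to 8.50 in MBs, 7.67 and 7.78 in GNPs and 11.24 and 11.33 in WC. Of these, Rbfox3 rose by 0.75, and Kcnd2 fell by 4.72 and Cbln1 by 1.86. The Purkinje cell list stood at 3.61 to 7.17 in MBs, 4.89 and 5.08 in GNPs and 11.44 and 11.52 in WC. Of its 6 measured markers, 2 were lower in MBs than in GNPs, Pcp4 by 2.83 and Calb1 by 2.78. The other 4 did not pass, and the median difference over the list was 0.57. The astroglia list stood at 4.97 to 7.32 in MBs, 7.47 and 7.56 in GNPs and 9.07 and 9.10 in WC, with 4 of 9 markers lower in MBs than in GNPs. Aqp4 fell by 3.72 and Gfap by 2.90, and Gfap had a mean level of 9.02 in GNPs against 6.12 in MBs and 5.01 in WC. Of 8 oligodendrocyte markers, Olig1 was higher by 2.32 and Mag and Cnp were lower in MBs than in GNPs, with differences of -2.54 and -2.22, with 4.05 to 5.90 in MBs, 4.92 and 6.20 in GNPs and 8.95 and 9.01 in WC. None of the 8 endothelial markers passed between MBs and GNPs, and Hba-a1 of the blood list was at the floor of 2.20 in all groups. Of 12 granule progenitor markers, 9 were higher in MBs than in GNPs and Zic2 was lower, with Gli1 higher by 6.80 (a lower bound, adjusted p = 1.19e-07), Ccnd1 by 6.74 (adjusted p = 1.00e-08) and Atoh1 by 6.0 (adjusted p = 3.25e-07). The part of these cell types in the differences of the kinetochore genes was not tested.

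Among the 8 MBs, the SD of a member's level had a median of 0.26 over the 41 genes and ran from 0.047 (Cenpo) to 1.35 (Cenpa). MB_1207 and MB_630 stood at the ends. Of the 36 members with a mean level above 5 in MBs, MB_1207 had the highest level for 17 and MB_630 the lowest for 16, whereas MB_1207 was highest for 19.5% and MB_630 lowest for 19.3% of the 8289 genes above that level. The median deviation of these members from the median of the other MBs was 0.35 in MB_1207 and -0.24 in MB_630. The top rank of MB_1207 depended on the probe set for some members. On the probe set of highest signal, Cenpf stood at 10.67 in MB_1207 and 11.10 in MB_1187. Bub1b stood at 9.51 in MB_1207 and 9.60 in MB_1224, and Bub3 at 11.70 and 11.85. Bub1 and Tpx2 were nearly equal in MB_1207 and MB_1224 there. Cenpa, Cenpw and Aurka were highest in MB_1207 on that probe set too. In MB_1207 and MB_630, the mean over the replication genes was 8.56 and 8.22, with 8.22 to 8.62 over all MBs. Mki67 was 12.42 and 11.98 there, with 11.98 to 12.66 over all MBs. Several marker lists of other cell types ran the other way in this pair. MB_630 had the highest mean level of the granule neuron (8.50), Purkinje cell (7.17), astroglia (7.32), oligodendrocyte (5.90), endothelial (4.81) and mesenchymal (5.81) lists among the MBs. MB_1207 had the lowest of the granule neuron (6.34), Purkinje cell (3.61), astroglia (4.97) and oligodendrocyte (4.05) lists. On the granule progenitor list both tumors were low, at 9.91 in MB_1207 and 9.99 in MB_630, with 9.91 to 10.40 over all MBs. On the microglia list MB_1207 stood at 6.39 and MB_630 at 7.24, with 6.20 to 7.54 over all MBs. The part of these cell types in the levels of the kinetochore genes was not tested. Without MB_630 the counts were again 39 higher than in GNPs and 40 higher than in WC. The labels put these tumors in no subgroups, so the spread is given as a description.

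**Figure D4:**
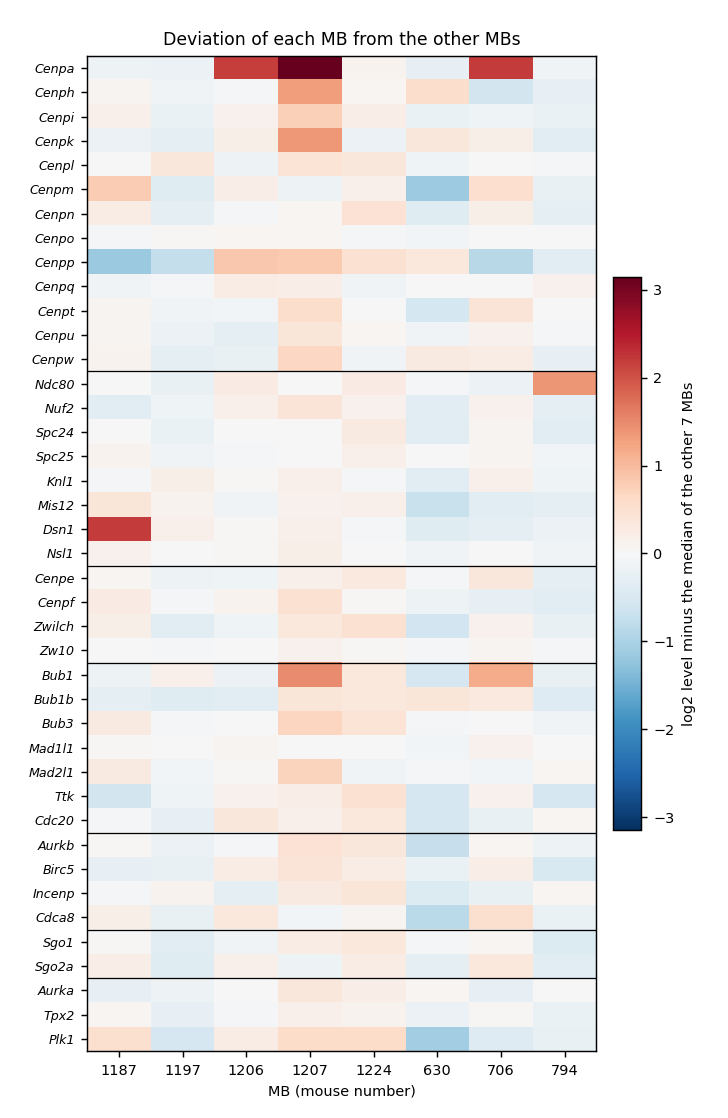
Log2 level of each of the 41 genes (rows) in each of the 8 MBs (columns, by mouse number) minus the median of the other 7 MBs, as color from blue (lower) to red (higher). The column of MB_1207 is mostly red, and the fields with deviations above 1 are Cenpa in MB_1206, MB_1207 and MB_706, Dsn1 in MB_1187, Bub1 in MB_1207 and MB_706, Ndc80 in MB_794, and Cenpk and Cenph in MB_1207. The Bub1 fields come from its probe set B, and the Cenpa fields mainly from its probe set A.

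Single members stood apart in single tumors. Dsn1, of the MIS12 complex (chr2:156995062-157007075), had a level of 10.35 in MB_1187 and 7.80 to 8.30 in the other 7 MBs, with 4.53 and 5.13 in GNPs. Without MB_1187, MBs exceeded GNPs by 3.26 in place of 3.55, and the difference of GNPs to WC, 1.23, passed (adjusted p = 0.00383 in place of 0.253). Of the 20 nearest measured genes on chromosome 2, 10 on each side, 14 had a mean level above 5 in the other 7 MBs, and all 14 were highest in MB_1187, with a median deviation of 2.08. Over all 8282 genes with a mean level above 5 in the same 7 MBs, MB_1187 was the highest for 11.99%. These neighbours included Rbl1, the p107 subunit of DREAM, at 6.19 in MB_1187 and 4.85 to 5.38 in the others, and Rpn2, at 12.14 against 9.70 to 10.29.

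Ndc80 stood at 10.31 in MB_794 and at 8.71 to 9.19 in the other 7 MBs. Of its 20 nearest measured genes on chromosome 17, 10 had a mean level above 5 in the other 7 MBs, and 9 of these were highest in MB_794, against 8.53% of all 8281 genes above 5 in the same 7 MBs. Their median deviation was 0.70. Clip4, 273574 bases from Ndc80 by gene start, stood at 8.04 in MB_794 and at 6.04 to 6.71 in the others. Without MB_794, MBs exceeded GNPs in Ndc80 by 3.93 (adjusted p = 1.34e-07).

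On chromosome 13, Cenpk (chr13:104228611-104249622) stood at 6.06 in MB_1207 and at 4.56 to 5.05 in the others, and Cenph (chr13:100759674-100775903) was also highest in MB_1207, at 8.81, followed by MB_630 at 8.05. Of the 20 neighbours of Cenpk, 13 had a mean level above 5 in the 7 MBs without MB_1207, and 9 of these were highest in MB_1207, against 19.2% of all genes by the same rule, with a median deviation of 0.81. By the rule without MB_630, 4 of 13 were highest in MB_630, against 11.9% of all genes, with a median deviation of 0.59. These 3 stretches were examined because a member stood apart there, so that the neighbours are a description. DNA copy number is not measured on these arrays, and its part in these levels was not tested.

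**Figure D5:**
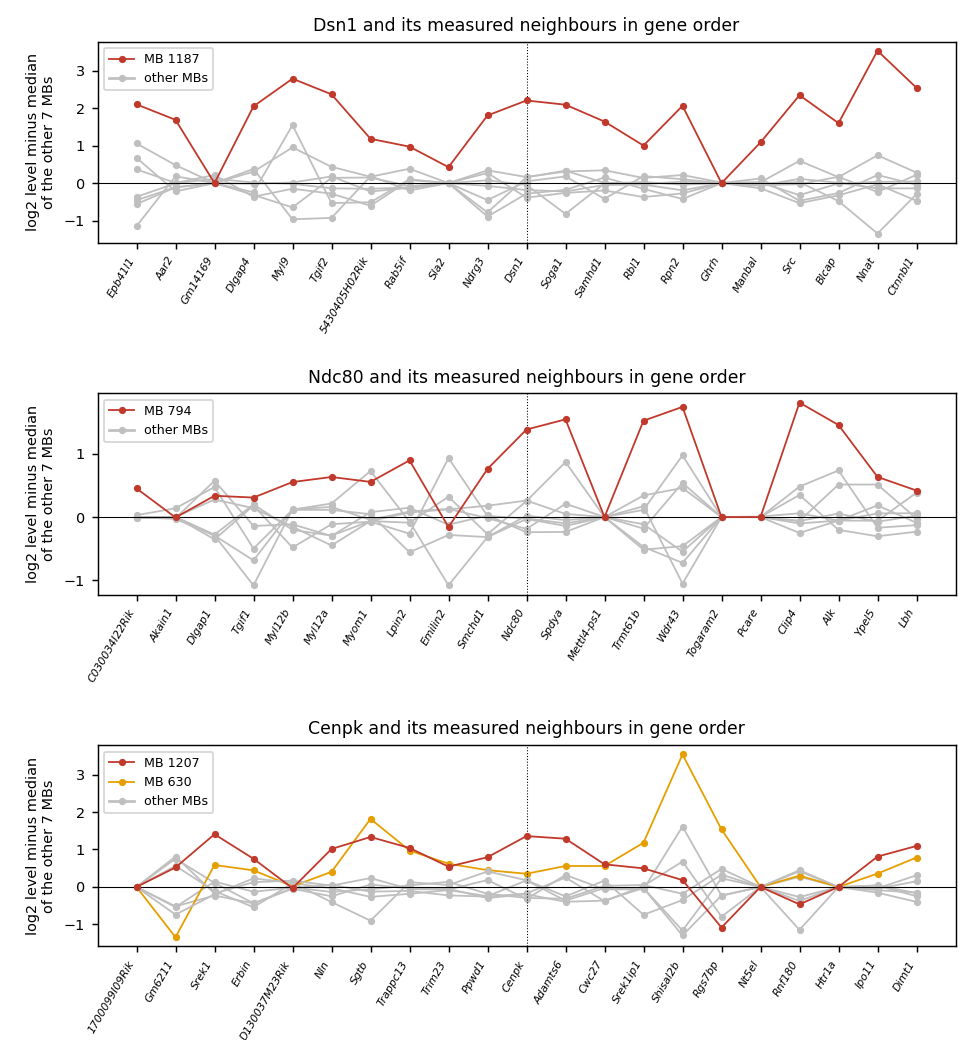
Log2 level in each MB minus the median of the other 7 MBs (y axis) for Dsn1, Ndc80 and Cenpk and the 10 measured genes on each side in gene order (x axis), with the MB in which the member stood apart in red, MB_630 in orange in the lowest panel and the other MBs in gray. In the top panel MB_1187 lies above the other MBs at all 14 neighbours with a mean level above 5 in the other 7 MBs, with deviations of 0.97 to 3.53.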

How the data were processed

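Total RNA of 8 MBs, 2 GNP and 2 WC samples was hybridised to Affymetrix mouse genome arrays. The authors normalized the arrays with GCRMA in the R package affy, and the deposited values are log2 expression levels of 45101 probe sets. Read depth has no counterpart here, so the number of arrays limits the precision. Probe sets were named through the platform annotation, in which 34945 pair with 1 gene, 932 with several and 9160 with none, besides 64 array controls. A gene's level was the mean over its probe sets not ending in _s_at or _x_at, or over all where no other exists, which gave 18193 genes.

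The 3 groups were fitted with limma 3.58.1 in R 4.3.3 over all 12 samples, with two-sided tests and Benjamini-Hochberg adjustment over all genes at 0.05. The fit was tested on simulated data. The members and the gene lists were chosen with earlier results of these data known. Full values are given for the members with the largest and smallest difference between MBs and GNPs in each complex, for Cenpa, Ndc80, Mad2l1, Bub1b, Aurkb, Cdc20 and Plk1, for any member that moved the opposite way, and for the 2 largest rises and falls past the test in each wider list or marker list. All others were named after their values were seen. Of 174 genes on the wider lists 164 were measured, and the p53 gene was not analysed here. The series text counts 9 MBs, of which 8 were analysed. Alternatives varied the probe sets, the normalization, the weights and filters, the test and the samples.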

Additional observations from a re-analysis of the deposited data

Results flagged for a closer look

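In 5 of the 41 genes, the highest or lowest of the 8 MBs stood farther from the nearest other MB than Dixon's 95% critical value allows. Dsn1 was at 10.35 in MB_1187, with 8.30 as the next highest. Ndc80 was at 10.31 in MB_794, with 9.19 as the next. MB_1207 had such a level of Cenpk at 6.06, with 5.05 as the next, of Cenpi at 9.06, with 8.54 as the next, and of Mad2l1 at 11.85, with 11.42 as the next. By chance about 1 in 20 groups holds such a sample, and among the genes with a mean level above 5 in MBs it was 984 of 8289 (11.9%) over all genes and 4 of 36 (11.1%) over these members. Cenpk, with a mean level of 4.92, lay under that level. The neighbours of Dsn1, Ndc80 and Cenpk are described above, and those of Cenpi and Mad2l1 were not examined.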

How the results depend on the processing

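The count of genes higher in MBs than in GNPs was 39 of 41, and lay between 37 and 39 when any sample was left out and between 33 and 39 under the other settings. Against WC it was 40, with 39 to 40 when any sample was left out and 36 to 40 under the other settings. Without MB_1207 and MB_706 together, a setting chosen after seeing the data, the counts were 38 and 40. The count higher in GNPs than in WC was 23, with 20 to 25 when any sample was left out. It was 9 when a log2 difference of at least 1 was tested for, 8 under the methods' t-test with adjustment and 24 without, and 17 to 29 under the other settings. The cause was not tested.

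Among single genes, the direction turned in these cases. The difference of MBs to GNPs was -0.060 for Mad1l1 with the arrays shifted to the same median and 0.37 for Cenpt with normal samples pooled. The difference of GNPs to WC was -0.27 for Zw10 (adjusted p = 0.0334) and 0.059 for Bub3 with the mean of all probe sets. With the probe set of highest signal it was 0.60 for Bub3 (adjusted p = 0.0296), 0.15 for Cenpu and 0.18 for Incenp. Leaving out 1 sample gave values of -0.022 to 0.027 for Zw10 (-0.018 without WC_2647), of -0.0020 to 0.024 for Cenpo and of -0.00067 to 0.020 for Mad1l1. In the comparison of GNPs with WC, Dsn1 passed without MB_1187 (adjusted p = 0.00383), Cenpk (adjusted p = 0.00470) and Bub1 (adjusted p = 0.0485) without MB_1207, Bub1b without CGNP_2705 (adjusted p = 0.0259), Nsl1 without WC_2647 (adjusted p = 0.00752) and Mis12 without MB_630 (adjusted p = 0.0360). In the same comparison Ttk did not pass without any 1 of the 4 normal samples (adjusted p = 0.0760 to 0.125), Knl1 without CGNP_2698, WC_2646 or WC_2647 (adjusted p = 0.107 to 0.191) and Aurkb without CGNP_2705 (adjusted p = 0.132) or WC_2646 (adjusted p = 0.143). Bub3 no longer passed between MBs and WC without WC_2646 (adjusted p = 0.0569). No paired analysis was possible because the groups share no mouse numbers. With 2 samples in each normal group, their own spread is poorly known.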

Other observations

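Replication genes and the MuvB and DREAM genes were measured beside the kinetochore genes. Of 24 replication genes, 23 were higher in MBs than in GNPs and 1 did not pass, with a median difference of 3.23, and 13 were higher in GNPs than in WC. Over all genes, 18.7% were higher in MBs than in GNPs and 14.9% were higher in GNPs than in WC. Mcm2, of the replicative helicase, rose by 6.02 (SE 0.25, adjusted p = 9.09e-08), and Pole, the leading strand polymerase, by 5.51 (SE 0.16, adjusted p = 7.47e-09). Of 11 MuvB and DREAM genes, 8 were higher in MBs than in GNPs and 3 did not pass, with a median difference of 1.22. Rbl1 rose by 2.20 (SE 0.27, adjusted p = 1.27e-04) and Lin9, of the MuvB core, by 1.87 (SE 0.20, adjusted p = 5.47e-05). Their relation to the kinetochore genes was not tested.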
